A study of Mus musculus with 6 samples.

Results

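The genes described here are 33 genes of sterol and fatty acid synthesis, chosen by name from 54532 named genes in a count table of mouse kidney mRNA. They cover the enzymes that build cholesterol, the sterol regulatory element-binding proteins (SREBPs) with their escort and retention factors, carriers that export or move cholesterol, and the enzymes that make, elongate and desaturate fatty acids. All 33 were found in the table, and 32 passed the filter on low counts. Kidneys came from mice labelled Lpar3-/-, described as lacking receptor 3 for lysophosphatidic acid, and from mice labelled WT, with 3 libraries in each group. Both groups had spent 12 h at 8% oxygen in a chamber at normal pressure, so hypoxia is shared and only the genotype label differs. The sources used here do not give the age, sex or strain of the mice or the altered part of Lpar3. They also do not say whether each library came from its own animal, and p-values therefore reflect the scatter of these libraries, some of which may be technical.

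Cholesterol is built from acetyl-CoA through mevalonate, squalene and lanosterol. SREBP2, from Srebf2, mainly drives the genes of that route, and the SREBP1c form from Srebf1 mainly drives fatty acid synthesis. Both wait in the endoplasmic reticulum bound to the escort Scap, which carries them to the Golgi for cleavage when membrane sterol is low, while Insig proteins hold the complex back when sterol is high. Liver X receptors, which sense oxysterols, switch on the exporters Abca1 and Abcg1. Several steps use molecular oxygen, namely those of Sqle, Cyp51, Msmo1, Sc5d and the fatty acid desaturases.

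The libraries held 15953794 to 17940438 counts in named genes. Lpar3 itself did not separate the groups, with 672, 592 and 580 counts in the libraries labelled Lpar3-/- and 645, 634 and 577 in WT. The counts are per gene, so a missing exon could not be seen, and every direction below rests on the labels. Kidney identity was plain in all libraries. Summed over 8 markers of tubule and podocyte, levels were 9054 to 9486 CPM (counts scaled to a common total with TMM factors) in the libraries labelled Lpar3-/- and 8424 to 8734 CPM in WT. These sums did not overlap, and 7 of the 8 markers had positive log2 fold changes. Of the 8, 0 were called, and the groups did not overlap for 3 (37.5%, 2 higher and 1 lower), beside 13.7% of all genes. The lowest p was that of Slc12a1, with a log2 fold change of 0.39 (SE 0.078, edgeR adjusted p = 0.0613). Of 8 markers of the adrenal cortex, a neighbouring tissue with high sterol turnover, 4 had no count in any library, and the sum was 4.27 to 5.43 CPM in the libraries labelled Lpar3-/- and 4.29 to 5.63 CPM in WT. Of the 8 tested markers each of adipocytes and macrophages 0 were called (edgeR adjusted p of at least 0.0525 and 0.138), although all had negative log2 fold changes, and their values stand beside the genes they could touch.

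No member passed the test between the groups. Of the 32 tested, edgeR's quasi-likelihood test called 0 at a Benjamini-Hochberg adjusted p under 0.05, where 0.374% of all 15225 genes tested were called, 0.125% on the higher and 0.25% on the lower side. DESeq2 and limma-voom also called 0. At an unadjusted p under 0.05 stood 7 of the 32 members (21.9%), beside 9.18% of all genes. They were Elovl6, Dhcr7 and Insig1 on the higher side, where the share over all genes was 3.97%, and Abca1, Sqle, Fasn and Mvd on the lower side, where it was 5.21%. The members were chosen with earlier results of these data known, so their share is no independent evidence of a difference. The 3 libraries of one group lay wholly above the 3 of the other for 5 members (15.6%), close to the 13.7% of all genes. In 3 of them the libraries labelled Lpar3-/- were higher, beside 6.58% of all genes, and in 2 lower, beside 7.12%. The median log2 fold change, libraries labelled Lpar3-/- over WT, was -0.041 over the members and -0.0036 over all genes, and 20 of 32 members (62.5%) were negative beside 51.1% of all genes.

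The data also bound how large a difference could have been. The 95% interval of the fold change lay within 1.5-fold in either direction for 28 of 32 members (87.5%), beside 67.3% of all genes. The 4 exceptions were Insig1, Fasn, Acaca and Scd1. Within 2-fold lay 31 members, all but Scd1. In simulated data with the spread of these libraries, the same test recovered 54.0% of genes changed 1.5-fold and 81.6% of genes changed 2-fold. Of its 146 calls there, 12 were false. The changed genes were drawn at random from all that passed the filter, so these shares are not specific to the members. The test called 57 genes in the real data. Benjamini-Hochberg adjustment is milder where more genes are called, so recovery in the real data may be lower.

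**Figure D1:**
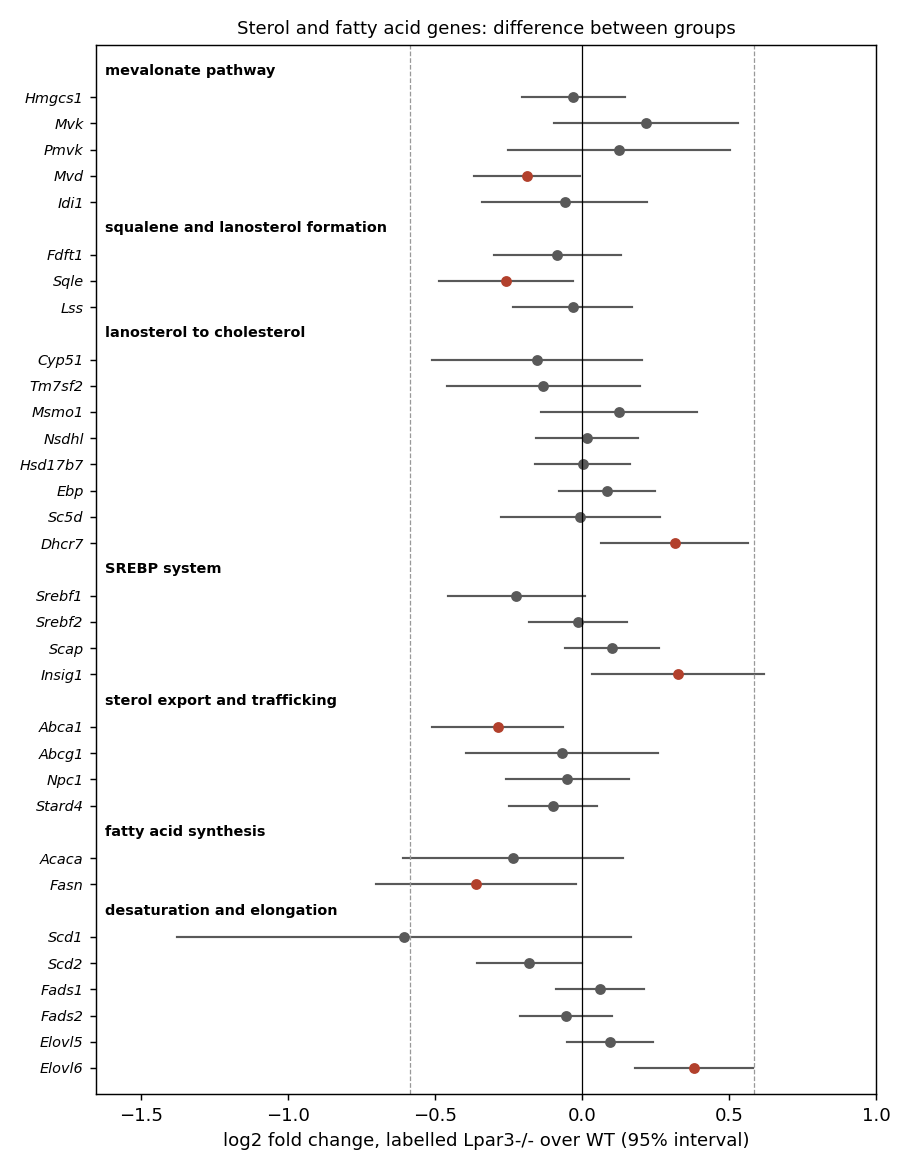
Log2 fold change of the 32 tested members, libraries labelled Lpar3-/- over WT, with 95% intervals; red points have an unadjusted p under 0.05 and dashed lines mark 1.5-fold. The points gather near 0, 28 of the 32 intervals stay inside the dashed lines, and Scd1 has the widest interval.

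The promoters of the sterol enzymes shared a sequence feature. RefSeq start sites on GRCm38.p6 gave windows for 24 members, 30 windows in all, each with 250 bases before the start and 50 after. Motifs were searched as exact letters on both strands. The CCAAT box, bound by NF-Y, an established partner of SREBPs, was in 20 of 30 member windows (66.7%), beside 37.0% of 14147 windows of all genes tested. At least 1 window of each of the 14 sterol synthesis enzymes with a window held it, against 5 of the 10 other members with one. This count is per gene, and no such share was taken over all genes tested. Dhcr7 and Pmvk also had windows without a match. The GC box GGGCGG was in 73.3% of member windows and 59.8% of those of genes tested, and the E-box CACGTG in 26.7% and 9.56%. The median GC content was 62.3% in member windows and 60.3% in those of genes tested. The sterol regulatory element core TCACNCCAC was in 1 member window, that of Hmgcs1, beside 1.19% of those of genes tested. The liver X receptor repeat, AGGTCA repeated in the same direction after 4 bases, was in 0 windows of either set. Many functional sterol elements differ from these letters, and elements can lie outside the window, so a missing match says nothing about regulation.

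The promoters of 4 members are shown for the range of this feature. Each gives the 250 bases before the start site, 5′ to 3′ on the gene's strand, with the CCAAT box (ATTGG where it lies on the other strand) and the sterol element core in capitals. They are Hmgcs1, with the single sterol element match, at chr13:119690101-119690350 on the plus strand; Mvk, with the most CCAAT matches, at chr5:114444019-114444268, plus; Fasn, with 3 matches of which 2 overlap, at chr11:120824548-120824797, minus; and Elovl6, the member with the lowest p, with none, at chr3:129532136-129532385, plus.
Hmgcs1: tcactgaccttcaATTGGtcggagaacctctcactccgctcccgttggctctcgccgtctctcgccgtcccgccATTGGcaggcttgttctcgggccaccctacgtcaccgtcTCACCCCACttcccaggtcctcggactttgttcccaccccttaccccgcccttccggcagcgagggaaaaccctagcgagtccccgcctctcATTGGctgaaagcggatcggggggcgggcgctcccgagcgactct
Mvk: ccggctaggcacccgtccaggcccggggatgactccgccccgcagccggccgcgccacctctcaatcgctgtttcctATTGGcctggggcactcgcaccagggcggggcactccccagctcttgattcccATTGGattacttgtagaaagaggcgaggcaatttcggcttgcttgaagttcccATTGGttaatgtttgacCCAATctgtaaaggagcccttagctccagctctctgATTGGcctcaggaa
Fasn: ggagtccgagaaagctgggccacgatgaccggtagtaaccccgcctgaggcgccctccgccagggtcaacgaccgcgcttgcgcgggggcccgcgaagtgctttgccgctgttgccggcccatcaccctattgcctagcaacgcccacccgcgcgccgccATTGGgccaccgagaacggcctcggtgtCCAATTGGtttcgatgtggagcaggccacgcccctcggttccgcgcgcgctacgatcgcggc
Elovl6: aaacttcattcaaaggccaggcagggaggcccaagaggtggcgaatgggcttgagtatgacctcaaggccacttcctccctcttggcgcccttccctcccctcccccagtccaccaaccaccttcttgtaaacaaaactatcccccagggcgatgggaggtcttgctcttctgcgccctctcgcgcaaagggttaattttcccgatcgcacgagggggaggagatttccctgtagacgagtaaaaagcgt
The sterol element of Hmgcs1 begins 137 bases before the start site. The 5 CCAAT boxes of Mvk begin 173, 120, 67, 50 and 14 bases before it. Of these genes, Hmgcs1 had a log2 fold change of -0.029, Fasn -0.36 and Elovl6 0.38, and none passed the test.

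The first enzymes of the route, up to farnesyl diphosphate, differed little between the groups. Hmgcs1, which encodes the synthase that makes HMG-CoA, had 309.7, 290.5 and 271 CPM in the libraries labelled Lpar3-/- and 281, 321 and 287 CPM in WT. The groups overlap, and the log2 fold change of -0.029 had a 95% interval of -0.20 to 0.14. Mvk, mevalonate kinase, had 10.1, 9.32 and 12.2 CPM in the libraries labelled Lpar3-/- and 8.58, 9.47 and 9.19 CPM in WT, with a log2 fold change of 0.22, the highest of these genes, and an interval of -0.094 to 0.53. Without replicate 3 of the libraries labelled Lpar3-/- it was 0.10. Pmvk, phosphomevalonate kinase, differed by 0.13 on the log2 scale (SE 0.17), and Idi1, the isomerase of isopentenyl diphosphate, by -0.059 (SE 0.13). Neither is larger than its error.

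Mvd, which encodes the decarboxylase that ends the mevalonate steps, was the lowest of them. It had 38.3, 35.7 and 34.7 CPM in the libraries labelled Lpar3-/- and 41.8, 43.8 and 38.1 CPM in WT, so that only replicate 1 of the libraries labelled Lpar3-/- reached into the WT range. The log2 fold change was -0.19 (SE 0.082) with an adjusted p of 0.527 (edgeR quasi-likelihood). Fdps, farnesyl diphosphate synthase, was nearly without counts, with 3, 3 and 7 in the libraries labelled Lpar3-/- and 6, 15 and 9 in WT, and was the member that failed the filter. The treatment of reads that fit several places is not given in the sources used here, and the table's annotation lists 1 processed copy of Fdps, on chromosome 17, with 0 counts in each library. No level of Fdps mRNA is drawn from these counts.

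At the steps from farnesyl diphosphate to lanosterol, Sqle had the log2 fold change furthest from 0, although its interval overlapped those of its neighbours. Sqle encodes squalene epoxidase, an oxygen-using and rate-limiting enzyme (chromosome 15, 59315077 to 59331192, plus strand). It had 23.35, 21.2 and 21.6 CPM in the libraries labelled Lpar3-/- and 23.37, 29.6 and 26.1 CPM in WT. Every library labelled Lpar3-/- lay below every WT library, but the nearest pair, replicate 1 of each group, was almost equal. With a log2 fold change of -0.26, an SE of 0.10 and an interval of -0.48 to -0.029, it did not pass (edgeR adjusted p = 0.468). Without WT replicate 2 it was -0.16, and with any 1 library left out it ran to -0.34 at the lowest. Fdft1, squalene synthase, and Lss, lanosterol synthase, had log2 fold changes of -0.083 (SE 0.10) and -0.032 (SE 0.092), both within their errors.

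The 8 enzymes from lanosterol to cholesterol lay on both sides of WT, 5 above and 3 below WT, and their median log2 fold change was 0.0094. Dhcr7, the reductase that makes cholesterol from 7-dehydrocholesterol (chromosome 7, 143823145 to 143848410, plus strand), was the highest. It had 21.4, 18.01 and 22.7 CPM in the libraries labelled Lpar3-/- and 15.97, 16.03 and 17.9 CPM in WT. The groups did not overlap, although replicate 2 of the libraries labelled Lpar3-/- and WT replicate 3 were nearly level. It differed by 0.31 on the log2 scale, with an SE of 0.11 and an interval of 0.066 to 0.56 (edgeR adjusted p = 0.387). Its immediate predecessor Sc5d, the desaturase that makes 7-dehydrocholesterol, had -0.0055 (SE 0.12).

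Cyp51, lanosterol demethylase, a cytochrome P450, was the lowest of the 8. It had 171, 175.5 and 180.4 CPM in the libraries labelled Lpar3-/- and 132, 242 and 212 CPM in WT. The libraries labelled Lpar3-/- were tight and lay inside the WT range, which spread from WT replicate 1 at the bottom to WT replicate 2 at the top. The log2 fold change was -0.15 (SE 0.16). It was -0.37 without WT replicate 1 (edgeR adjusted p = 0.0684), 0.032 without WT replicate 2 (0.977) and -0.088 without WT replicate 3 (0.938). Nsdhl and Hsd17b7, which with Msmo1 remove the methyl groups at carbon 4, had 0.017 (SE 0.079) and 0.0020 (SE 0.074), and Ebp, the sterol isomerase, had 0.085 (SE 0.075). Msmo1 (0.13, SE 0.12) and Tm7sf2, a sterol reductase (-0.13, SE 0.15), were also within about 1 error of 0.

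Per length, the route was uneven in the same way in both groups. FPKM corrects the level for the annotated gene length, so an order of genes depends on that length. Hmgcs1 averaged 62.9 ± 4.31 FPKM in the libraries labelled Lpar3-/- and 63.9 ± 4.88 FPKM in WT (SD, n = 3 each), the highest of the 17 enzymes. By mean, Cyp51 came next, with 39.5 ± 1.01 and 43.8 ± 12.8 FPKM, followed by Ebp with 25.5 ± 1.35 and 24.0 ± 1.42 FPKM. Mvd (19.4 ± 1.05 and 22.0 ± 1.62 FPKM) and Nsdhl (18.5 ± 0.747 and 18.3 ± 1.46 FPKM) overlapped in the libraries labelled Lpar3-/-, where they cannot be ordered, whereas every WT library had more Mvd than Nsdhl. Tm7sf2 (1.57 ± 0.109 and 1.72 ± 0.261 FPKM), Lss (1.86 ± 0.0677 and 1.90 ± 0.0562 FPKM) and Msmo1 (2.11 ± 0.195 and 1.925 ± 0.0432 FPKM) had the lowest means of the tested ones. Lss has an annotated length of 10787 bases and Mvk one of 2675. In CPM, Lss averaged 20.18 in the libraries labelled Lpar3-/- and 20.64 in WT, above Mvk with 10.55 and 9.08. The values of Lss overlapped those of Msmo1 in both groups and those of Tm7sf2 in WT, so that Lss and Msmo1 cannot be ordered.

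**Figure D2:**
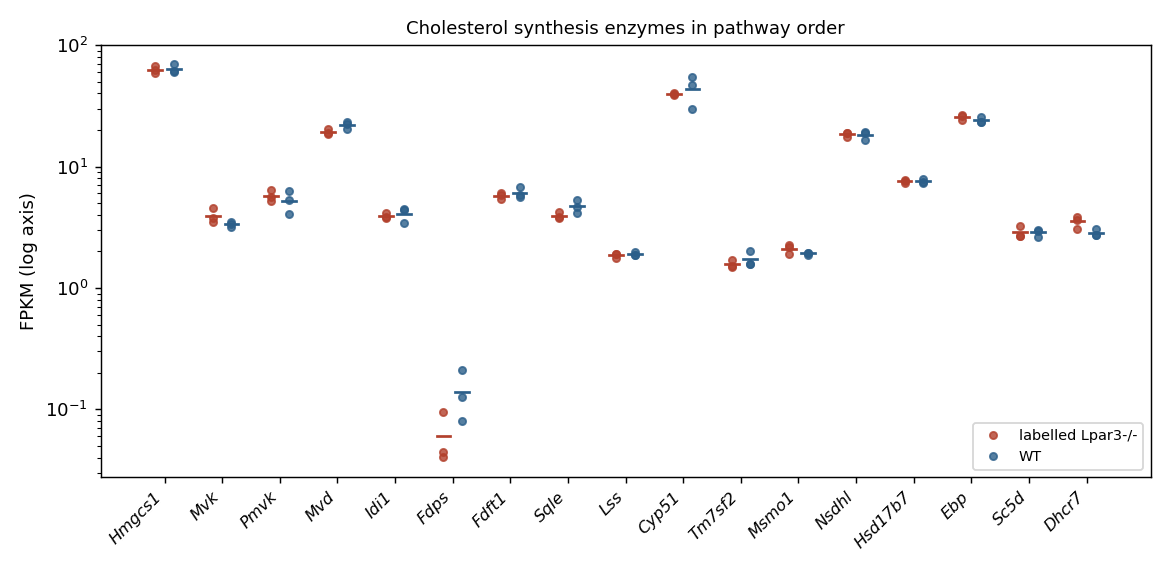
FPKM (log axis) of the 17 cholesterol synthesis enzymes in pathway order, with 1 point per library and a line at each group mean; red, labelled Lpar3-/-, and blue, WT. Levels differ far more between enzymes, from Hmgcs1 down to Lss and Tm7sf2, than between groups, and Fdps had hardly any counts.

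Among the SREBP genes, Insig1 differed most between the groups. Insig1 encodes the retention factor and is itself a textbook SREBP target (chromosome 5, 28071363 to 28078662, plus strand). It had 55.2, 61.8 and 63.8 CPM in the libraries labelled Lpar3-/- and 59.9, 38.0 and 46.0 CPM in WT. The level in WT replicate 1 lay inside the span of the libraries labelled Lpar3-/-, and the other two WT libraries were below them all. This gave a log2 fold change of 0.33 with an SE of 0.13 and an interval of 0.035 to 0.62 (edgeR adjusted p = 0.474). Without WT replicate 1 it was 0.52 and passed (edgeR adjusted p = 0.0386), the 1 member called in any of the fits with a library left out. Without WT replicate 2 it was 0.18 (edgeR adjusted p = 0.678). Adjusted p-values in those 6 fits ran from 0.0386 to 0.842.

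The SREBPs themselves and Scap were nearer to WT. Srebf1 had 23.7, 28.9 and 30.2 CPM in the libraries labelled Lpar3-/- and 34.0, 28.9 and 33.6 CPM in WT, with a log2 fold change of -0.22 (SE 0.11, interval -0.46 to 0.010) that was -0.12 without replicate 1 of the libraries labelled Lpar3-/-. Its counts pool the promoters of SREBP1a and SREBP1c, which cannot be separated per gene. Srebf2 had 100.1, 91.8 and 99.6 CPM in the libraries labelled Lpar3-/- and 103, 89.2 and 103 CPM in WT, a log2 fold change of -0.014 (SE 0.076). Scap had 0.10 (SE 0.073). SREBP activity is set by protein cleavage, which mRNA counts do not measure.

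The 4 genes of sterol export and trafficking all lay on the lower side. Their median log2 fold change was -0.083, and that of 3 of them was no further from 0 than -0.098. Abca1, the exporter that loads cholesterol onto apolipoprotein A-I (chromosome 4, 53030787 to 53159895, minus strand), had 43.2, 48.2 and 58.4 CPM in the libraries labelled Lpar3-/- and 62.9, 62.3 and 57.6 CPM in WT. Replicate 3 of the libraries labelled Lpar3-/- exceeded WT replicate 3, and the other two lay below all of WT. Its log2 fold change of -0.29 had an SE of 0.10 and an interval of -0.51 to -0.066 (edgeR adjusted p = 0.369). Its partner exporter Abcg1 had -0.067 (SE 0.15). Npc1, which releases cholesterol from lysosomes, had -0.050 (SE 0.096).

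Stard4, a cytosolic sterol carrier and SREBP target, was measured most precisely of the 4. It had 72.3, 65.8 and 72.1 CPM in the libraries labelled Lpar3-/- and 77.2, 74.2 and 73.7 CPM in WT. The groups did not overlap, yet the log2 fold change was only -0.098 (SE 0.068, edgeR adjusted p = 0.748). Macrophages express Abca1 and Abcg1 strongly. The summed level of 8 macrophage markers was 84.3 to 89.4 CPM in the libraries labelled Lpar3-/- and 95.4 to 123 CPM in WT. Of the 8, 0 were called, and their median log2 fold change was -0.56. The groups did not overlap for 3 (37.5%), beside 13.7% of all genes. An unadjusted edgeR p under 0.05 was found for 3 (37.5%), all lower, beside 9.18% of all genes. Csf1r, the receptor for colony-stimulating factor 1 and the largest part of the sum, differed by only -0.045 on the log2 scale (SE 0.086), with 48.6, 49.1 and 50.7 CPM in the libraries labelled Lpar3-/- and 44.7, 53.8 and 54.7 CPM in WT. Their part in the Abca1 difference was not tested. In bulk tissue, fewer cells of a type and less RNA per cell cannot be told apart.

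In both genes of fatty acid synthesis 1 WT library stood above the rest. Fasn, the synthase that makes palmitate (chromosome 11, 120805846 to 120824547, minus strand), had 72.5, 77.1 and 68.5 CPM in the libraries labelled Lpar3-/- and 125, 77.8 and 76.6 CPM in WT. WT replicate 1 was far above all others, which lay close together. The log2 fold change was -0.36 (SE 0.16, edgeR adjusted p = 0.513), and without WT replicate 1 it was -0.086. Acaca, acetyl-CoA carboxylase, which makes malonyl-CoA for Fasn, had 17.4, 22.7 and 17.1 CPM in the libraries labelled Lpar3-/- and 27.7, 22.6 and 16.6 CPM in WT. It was again highest in WT replicate 1, with a log2 fold change of -0.23 (SE 0.17). It was -0.045 without WT replicate 1, -0.40 without WT replicate 3 and -0.38 without replicate 2 of the libraries labelled Lpar3-/-.

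Scd1, the stearoyl-CoA desaturase that makes oleate, showed the same library at its most extreme (chromosome 19, 44394451 to 44407709, minus strand). It had 114, 132 and 132 CPM in the libraries labelled Lpar3-/- and 343, 148 and 84.3 CPM in WT. The libraries labelled Lpar3-/- were tight and lay within the wide WT range. The log2 fold change of -0.61 (SE 0.35, interval -1.38 to 0.17, edgeR adjusted p = 0.671) was the largest of the members in size and the least certain. Without WT replicate 1 its sign turned, to 0.12, and without WT replicate 3 it was -0.96.

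Its neighbour Scd2, a second desaturase with the same reaction, did not share this spread. It had 55.4, 54.5 and 64.8 CPM in the libraries labelled Lpar3-/- and 68.8, 62.5 and 66.4 CPM in WT, a log2 fold change of -0.18 (SE 0.082, edgeR adjusted p = 0.549). Per length, Scd1 stood above Scd2, with 25.9 ± 2.06 against 10.6 ± 1.02 FPKM in the libraries labelled Lpar3-/- and 39.3 ± 27.6 against 12.0 ± 0.557 FPKM in WT (SD, n = 3 each).

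Adipocyte markers were also highest in WT replicate 1. Fat cells make much Fasn, Acaca and Scd1 mRNA, and perirenal fat borders the kidney. Summed over 9 markers, their level was 144.3, 216 and 144.0 CPM in the libraries labelled Lpar3-/- and 369, 278 and 199.9 CPM in WT, and the 8 tested markers had a median log2 fold change of -1.50. None of the 8 was called (lowest edgeR adjusted p 0.0525). An unadjusted edgeR p under 0.05 was found for 6 (75%), all lower, beside 9.18% of all genes. The groups did not overlap for 4 (50%), beside 13.7% of all genes. Plin4, which coats lipid droplets, had a log2 fold change of -0.059 (SE 0.17). Adipoq, adiponectin, had 35, 90 and 56 counts in the libraries labelled Lpar3-/- and 252, 171 and 100 in WT. None of the 9 was at 0 in every library. The marker sums of the groups overlap, since replicate 2 of the libraries labelled Lpar3-/- was above WT replicate 3. Fabp4 was the largest part of every sum and overlapped in the same way. It had 104.2, 142.5 and 108.5 CPM in the libraries labelled Lpar3-/- and 204.9, 145 and 119.6 CPM in WT. Its log2 fold change of -0.40 (SE 0.17) was nearer to 0 than the median of the markers, so the sums understate the difference of most of them. The part of fat cells in these differences was not tested.

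**Figure D3:**
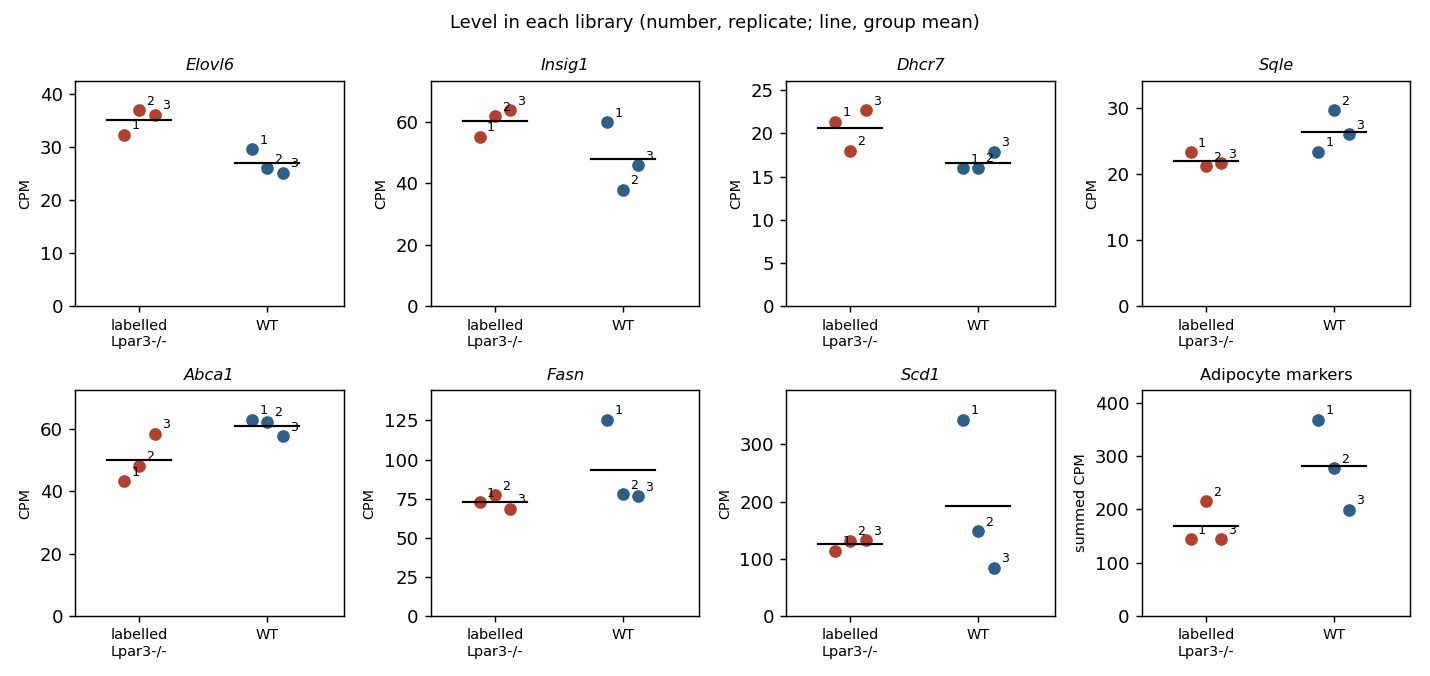
CPM in each library for Elovl6, Insig1, Dhcr7, Sqle, Abca1, Fasn and Scd1, and the summed CPM of 9 adipocyte markers; the number beside a point is the replicate and the line is the group mean. Elovl6 separates the groups. Dhcr7 and Sqle do so only narrowly, with the nearest libraries of the groups almost level. Fasn, Scd1 and the adipocyte markers peak in WT replicate 1.

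Elovl6 had the lowest p of all members, in the direction opposite to Fasn and Scd1. It encodes the elongase that takes palmitate to stearate (chromosome 3, 129532355 to 129638495, plus strand) and is a known SREBP1c target. It had 32.3, 36.8 and 36.0 CPM in the libraries labelled Lpar3-/- and 29.5, 26.0 and 25.1 CPM in WT. The lowest library labelled Lpar3-/- exceeded the highest WT library. The means were 35.0 ± 2.42 and 26.9 ± 2.34 CPM (SD, n = 3 each), a 1.30-fold difference with a log2 fold change of 0.38 (SE 0.092, interval 0.18 to 0.58). The unadjusted p was 0.00136, and the adjusted p over all genes, 0.129, did not pass (edgeR quasi-likelihood). An exon of Elovl6 overlaps one of the opposite-strand gene Gm35986, and whether counting used strand is not given. Without each library in turn the log2 fold change ran from 0.34 to 0.46.

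The other enzymes of fatty acid remodelling had small differences. Elovl5, which elongates polyunsaturated fatty acids, had 61.2, 67.1 and 64.2 CPM in the libraries labelled Lpar3-/- and 59.6, 61.2 and 59.3 CPM in WT. The groups stopped just short of touching, and the log2 fold change was 0.095 (SE 0.067, edgeR adjusted p = 0.750). The delta-5 and delta-6 desaturases lie side by side on chromosome 19. Fads1 had a log2 fold change of 0.061 (interval -0.087 to 0.21) and Fads2 one of -0.054 (interval -0.21 to 0.10). Fads2 reached 67.1 ± 4.42 FPKM in the libraries labelled Lpar3-/- and 69.4 ± 3.08 FPKM in WT. This was the highest mean level per length of all 33 members, although its values overlapped those of Hmgcs1. The rank rests on annotated lengths of 1508 bases for Fads2 and 4594 for Hmgcs1. In CPM, Fads2 averaged 101.8 in the libraries labelled Lpar3-/- and 105.6 in WT, below Hmgcs1 with 290.5 and 296.4.

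Seen by library, WT replicate 1 was the highest of the 6 for 12 of the 33 members (36.4%), beside 15.4% of all genes tested. Over the fatty acid synthesis pair its mean log2 deviation from the 6-library mean was 0.53, where the other libraries ran from -0.25 to 0.045. Over the 8 enzymes from lanosterol to cholesterol it was the lowest, at -0.064, with the others from -0.023 to 0.056. Over all 32 tested members the library means ran from -0.041 to 0.093, less than 0.1 from 0 in every library.

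**Figure D4:**
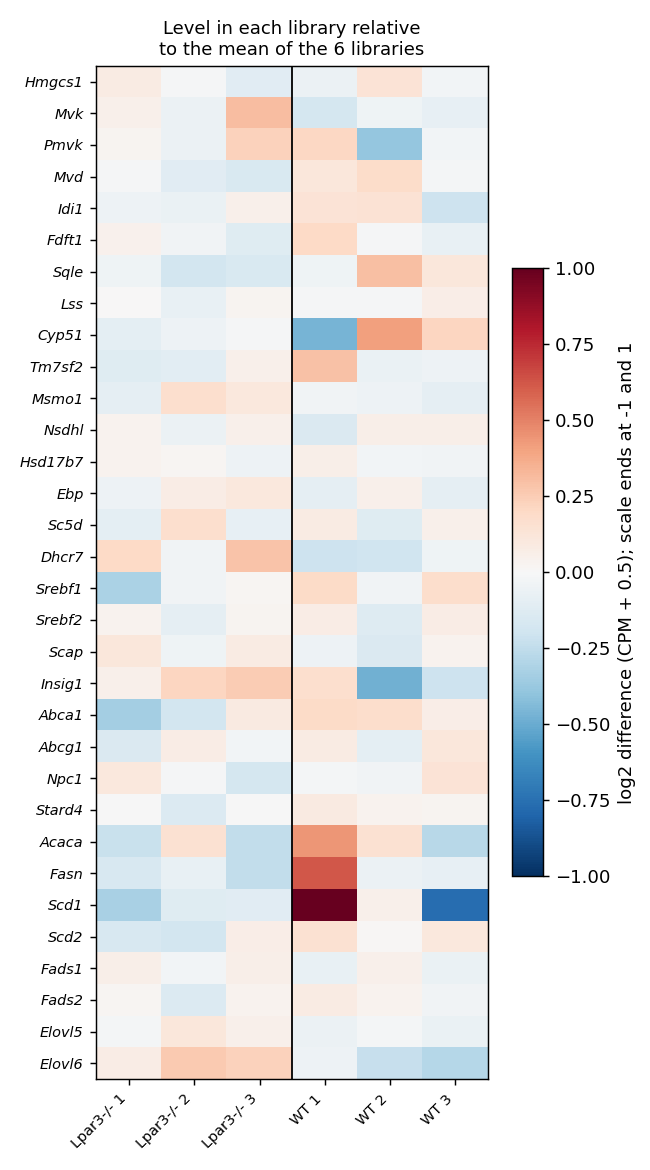
Log2 difference of each tested member from its mean over the 6 libraries (rows, members in role order; columns, 3 libraries labelled Lpar3-/- left of the line and 3 WT libraries right of it; colours saturate at -1 and 1). Most cells are pale, and the 3 strongest colours are WT replicates 1 and 3 for Scd1 and WT replicate 1 for Fasn.

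The wider pathway gave 1 call. Of 62 other genes of these routes, 51 were tested and 1 was called, beside 0.374% of all genes. Without adjustment, 10 (19.6%) had a p under 0.05, beside 9.18%, but these lists too were chosen with earlier results of these data known. The called gene was Cyp7b1, the hydroxylase that inactivates oxysterols and also steroids, with 73.7, 101 and 77.0 CPM in the libraries labelled Lpar3-/- and 126, 211 and 154 CPM in WT. The groups did not overlap. It fell with a log2 fold change of -0.96 (SE 0.17, edgeR adjusted p = 0.0357), but not past the threshold without replicate 1 (0.187), 2 (0.0513) or 3 (0.238) of the libraries labelled Lpar3-/- or without WT replicate 3 (0.0829, all edgeR adjusted p), nor in the limma fits on FPKM (adjusted p from 0.267 to 0.464). In the same list of 8 oxysterol and bile acid genes, of which 5 were tested, Akr1d1, the steroid 5-beta-reductase, had 51.1 ± 0.858 CPM in the libraries labelled Lpar3-/- and 39.9 ± 3.08 CPM in WT (log2 fold change 0.36, SE 0.078, edgeR adjusted p = 0.0830).

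Of 26 other genes of sterol synthesis, sensing and handling, 22 were tested and 0 called, 2 with an unadjusted p under 0.05 on each side. Those with the lowest p were Gramd1b, a carrier of cholesterol from the plasma membrane to the endoplasmic reticulum (365 ± 11.4 CPM in the libraries labelled Lpar3-/- and 305 ± 15.0 CPM in WT, edgeR adjusted p = 0.201), and Lipa, the lysosomal lipase that frees cholesterol from its esters (228.5 ± 14.7 and 268 ± 36.2 CPM, edgeR adjusted p = 0.503). Of 28 other genes of fatty acid synthesis and esterification, 24 were tested and 0 called, 3 with an unadjusted p under 0.05, all lower. The lowest p belonged to Hsd17b12, the reductase of the elongation cycle that Elovl6 starts. It had 75.0, 87.4 and 72.7 CPM in the libraries labelled Lpar3-/- and 101.5, 108 and 92.2 CPM in WT (log2 fold change -0.36, SE 0.087, edgeR adjusted p = 0.130). Acss2, which makes acetyl-CoA from acetate, followed with 269.7 ± 10.4 and 306 ± 9.82 CPM (edgeR adjusted p = 0.413).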

How the data were processed

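Kidney mRNA was sequenced from 3 libraries labelled Lpar3-/- and 3 labelled WT. The submitters' processing notes name the tools HISAT2 2.0.5 (alignment), featureCounts 1.5.0-p3 (read counts) and DESeq2 1.20.0, and the build GRCm38. They do not state the strand option, which annotation was counted, or what became of reads with more than 1 possible origin. The deposited counts are raw reads per gene, and the deposited FPKM values were made by the authors. Rows without a gene name (377 of 54909, 0.259% to 0.362% of a library's counts) were left out.

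Groups came from sample titles. All named genes were fitted with edgeR 4.0.16 (R 4.3.3; default expression filter, TMM, quasi-likelihood F-test, no covariate, 6 libraries), with Benjamini-Hochberg adjustment over 15225 genes. SE came from the fold change and F. CPM used TMM-scaled library sizes. Alternatives were DESeq2 1.42.0, limma-voom and limma on log2(FPKM + 1) or log2(FPKM + 0.1) (limma 3.58.1), RLE and upper quartile scaling, no filter, a stricter filter, a replicate block and each library left out. The test was run on simulated data first. Deviations by library used log2(CPM + 0.5). The members and gene lists were chosen with earlier results of these data known. The text gives all members, and of each other list the genes called and the 2 with the lowest p. Of the 33 members, 26 had the same coordinates in GENCODE M21, and 12 had an exon overlapping another gene there, among them Fdft1 (with Ctsb), Cyp51 (with Akap9), Srebf1 (with Rai1) and Tm7sf2 (with Vps51), so their counts are less certain.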

Additional observations from a re-analysis of the deposited data

How the results depend on the processing

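The 0 calls among members held under RLE and upper quartile scaling, the stricter filter, DESeq2, limma-voom, all 3 limma fits on FPKM and the replicate block, and with 1 library left out edgeR called 0 to 1 (Insig1, without WT replicate 1). Without a filter edgeR called 520 genes, 4 members (Elovl6, Fasn, Insig1 and Scd1) and 4 other pathway genes. There the fitted prior degrees of freedom were infinite, against 7.75 in the filtered fit, so each gene's own spread was given no weight. DESeq2 called 173 of all genes, 4 of the other pathway genes, and gave 4 members an unadjusted p under 0.05. Limma called 9 genes on log2(FPKM + 1), 13 on log2(FPKM + 0.1) and 4 on log2(FPKM + 1) without a filter, with 0 other pathway genes and 4 members at an unadjusted p under 0.05 in each. With 1 library left out, 12 to 149 genes, 0 to 2 other pathway genes and 2 to 7 members at an unadjusted p under 0.05 were counted, and 7 to 12 members (21.9% to 37.5%) did not overlap, beside 21.8% to 27.5% of all genes. Under RLE scaling 4 members (12.5%) did not overlap, beside 13.8% of all genes. Same-numbered libraries of the groups did not deviate together (correlations of 0.011, 0.020 and 0.062 over genes tested), and not every library correlated best with its own number. With the replicate block edgeR called 80 genes, 0 members and Cyp7b1, and 8 members had an unadjusted p under 0.05. Elovl6 had an unadjusted p under 0.05 in every fit run.

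Of the members, 13 took either sign when 1 library was left out. The log2 fold change ran from -0.077 to 0.033 for Hmgcs1, -0.025 to 0.28 for Pmvk, -0.17 to 0.0026 for Idi1, -0.13 to 0.0070 for Fdft1, -0.37 to 0.032 for Cyp51 and -0.20 to 0.0028 for Tm7sf2. It ran from -0.047 to 0.055 for Nsdhl, -0.015 to 0.033 for Hsd17b7, -0.098 to 0.045 for Sc5d, -0.078 to 0.026 for Srebf2, -0.12 to 0.025 for Npc1 and -0.082 to 0.00064 for Fads2. For Scd1, the largest in size, it ran from -0.96 to 0.12 and was positive only without WT replicate 1.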
